A study of Rattus norvegicus with 18 samples.

Results

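This comparison sets the abdominal aorta of spontaneously hypertensive rats (SHR) given ethoxysanguinarine against that of untreated SHR. Its members are the 420 transcripts listed for both groups, out of 4874 listed anywhere in the series, and 199 of the 420 were tested because 6 or more of the 12 libraries had a value of 1 or above. Both groups held 6 animals of the inbred SHR strain, which develops high blood pressure without surgery or drug. The SHR group received double distilled water into the stomach for 10 weeks, and the SHR+ETH group received ethoxysanguinarine by the same route at 3.5 mg/kg per day for 10 weeks. Animals were allocated at random per the treatment protocol, and each library was taken as 1 animal. One treatment field of every SHR+ETH animal reads water and the other ETH, and the group field was followed. Age and blood pressure are not given in the labels. The normotensive Wistar Kyoto (WKY) group of 6 water-treated rats was not part of the contrast and its values are given beside it only for orientation. RNA came from whole pieces of vessel after ribosomal RNA depletion, so fewer cells of a type and less RNA per cell cannot be told apart.

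The abdominal aorta is an elastic artery whose wall is built mainly of smooth muscle cells, with an endothelial lining and an outer layer of fibroblasts, fat and nerve. In long-standing hypertension the wall thickens, smooth muscle cells change their state and collagen is laid down. Transforming growth factor beta 1, named in the title of the series, binds a pair of serine/threonine kinase receptors, which phosphorylate Smad2 and Smad3. These enter the nucleus with Smad4 and switch on matrix genes. Ethoxysanguinarine is a benzophenanthridine alkaloid related to sanguinarine. The deposited tables gave Ensembl transcript identifiers or numbers of an assembly (MERGE, a locus number and a transcript number) without gene names. None of them occurred in the RefSeq gene table for rat (GRCr8), so the pathway, cell type markers and the roles of the members could not be read, and transcripts are described by identifier.

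The 420 members comprised 114 Ensembl transcripts and 306 assembled transcripts from 287 loci. Values are the deposited normalized levels, whose unit the tables do not name, and they are compared here between animals and not between transcripts, except where an order by value is stated. Most were low: the median of the mean over the 12 libraries was 2.40 in the 199 tested and 0.634 in the 221 that were not, where 181 had a mean under 1. No tested transcript had a log2 fold change between -0.36 and 0.37, a gap that runs along the diagonal of the plot of mean levels. Early rows of the SHR+ETH tables held most of the calls. Of the 49 tested transcripts that came first, 34 were called, and of the 49 that came last, 3 were. Across the 199, Spearman's rho between row number and limma p was 0.604 in the SHR+ETH tables and 0.120 in the SHR tables, a description over transcripts of the same libraries. The criterion behind the list is not stated in the labels or tables. The p-values below are those of a list with this gap around no change, and a difference between the groups cannot be told apart from the choice of the list by these counts.

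Ethoxysanguinarine-treated aortas differed from untreated ones in 67 of the 199 tested transcripts (33.7%) at a Benjamini-Hochberg adjusted p under 0.05. Of these, 50 were lower in SHR+ETH (25.1% of those tested, 14 Ensembl and 36 assembled) and 17 were higher (8.54%, 6 Ensembl and 11 assembled). The lower transcripts had a median log2 fold change of -1.22 (range -5.57 to -0.78) and the higher ones 1.42 (range 0.70 to 4.76), against -0.85 over all tested transcripts. All fold changes are differences of mean log2(value + 1), SHR+ETH minus SHR. Most calls lay close to the threshold: 41 of the 67 had an adjusted p of 0.04 or more, and 7 had one under 0.02. The calls were spread over all levels. Among 85 transcripts with a mean under 2 there were 22 lower and 5 higher calls, among 88 with a mean from 2 to 10 there were 22 and 10, and among 26 above 10 there were 6 and 2. The count depended on single libraries. For untreated animals, there were 11 calls without SHR 41, 23 without SHR 48 and 25 without SHR 3. There were 27 each without SHR 40 and SHR 60, and 44 without SHR 59. In that order, these fits kept 10, 23, 22, 27, 26 and 38 of the original 67. For treated animals, there were 40 calls without SHR+ETH 65, 44 without SHR+ETH 54 and 55 without SHR+ETH 64. There were 67 each without SHR+ETH 1 and SHR+ETH 2, and 71 without SHR+ETH 58. In that order, these fits kept 35, 38, 44, 49, 48 and 50 of the original 67, and their other calls were new. With a pseudocount of 0.1 in place of 1, 12 were called, 10 lower and 2 higher. Unadjusted limma p was under 0.05 in 120 of the 199 in the main fit. It was so in 130 with that pseudocount and in 102 to 127 without 1 library. Several transcripts shared the same limma adjusted p near the threshold, 0.0472 in the main fit and 0.0623 with that pseudocount. The number of calls can therefore move by many at once. The balance of directions depended on the scaling, with 12 lower and 18 higher after median ratio scaling and 7 lower and 48 higher after quantile normalization. Both scalings were computed within this list, the first from 107 of the 420 members and the second from the 199 tested. Of these 199, 141 were lower in SHR+ETH. Drawing such libraries to a common level removes lower calls and adds higher ones by construction. The 2 scalings therefore cannot show which balance holds.

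**Figure D1:**
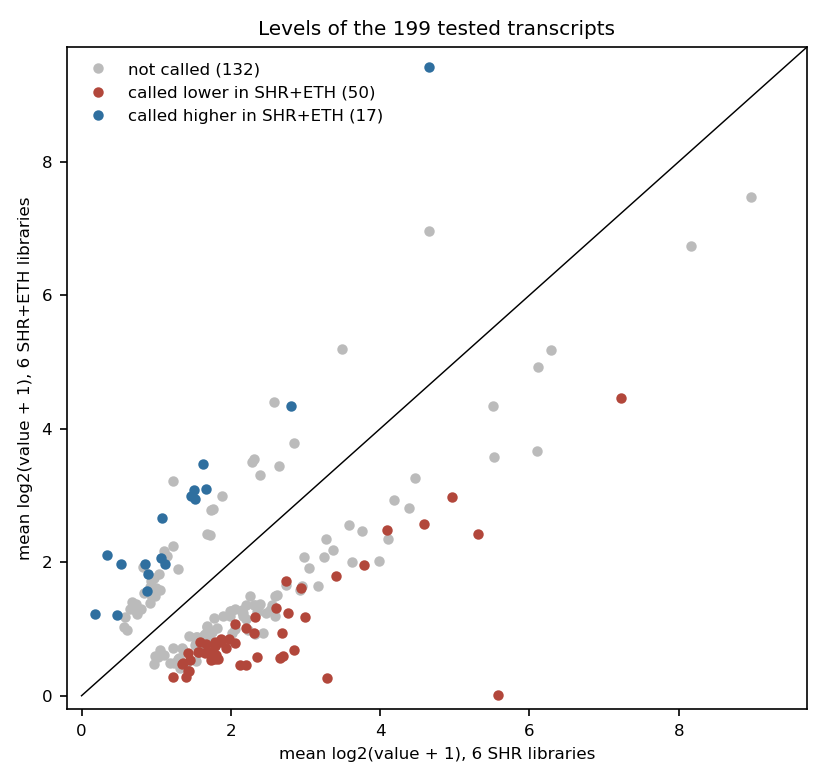
Mean log2(value + 1) of the 199 tested transcripts in the 6 SHR libraries (horizontal) and the 6 SHR+ETH libraries (vertical), 1 point per transcript, with the line of equal levels. The 50 transcripts called lower lie below the line, the 17 called higher lie above it, and no transcript lies on the line.

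Of the 67 calls, 9 remained in every fit that left out 1 of the 12 libraries, 8 lower and 1 higher. They were picked out after their values were seen. MERGE.16214.8 showed the largest difference. Its values were 171, 72.5, 28.9, 40.6, 11.9 and 57.5 in SHR 3, 40, 41, 48, 59 and 60. In SHR+ETH it was listed at 0 in 5 animals and at 0.0307 in SHR+ETH 64 (log2 fold change -5.57, SE 0.54, limma adjusted p = 8.58e-07). The means were 63.7 ± 56.5 and 0.00511 ± 0.0125 (SD, n = 6 each). It reached 1 in all 6 untreated animals and in no treated one, so it passed the filter through SHR alone, and a difference between the groups was built into its being tested. With treated values this near 0, the pseudocount sets the size of the fold. In WKY it was listed at 0 in 5 libraries and at 4.47 in WKY 5.

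MERGE.25749.4 varied little among untreated animals, at 7.10, 7.39, 8.56, 9.75, 8.81 and 11.5. Treated animals had 0.0607, 0, 1.73, 0.0696, 0 and 0 in SHR+ETH 1, 2, 54, 58, 64 and 65 (log2 fold change -3.01, SE 0.35, limma adjusted p = 6.90e-06). The means were 8.86 ± 1.63 and 0.310 ± 0.695 (SD). The 2 groups did not overlap, and SHR+ETH 54 was the only treated animal above 1. WKY animals fell on both sides, with 11.6 in WKY 1 and 10.4 in WKY 6 and values from 0.0233 to 1.61 in the other 4. MERGE.24493.5 was also separate between the groups, with 1.55, 1.59, 2.04, 1.77, 1.54 and 1.89 in SHR against 0.115, 0.397, 0.948, 0.147, 0.323 and 0.0333 in SHR+ETH (log2 fold change -1.07, SE 0.24, limma adjusted p = 0.0103). All its SHR values were above 1 and all its SHR+ETH values below, so it too passed the filter through SHR alone, and the separation at 1 and its test are no independent support. Its spread in SHR was narrow, at 1.73 ± 0.204 (SD, n = 6). Quantile normalization ended its call (log2 fold change -0.25, adjusted p = 0.407).

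In each of the other 5 lower transcripts that kept their calls, 1 treated animal lay in the range of the untreated ones. ENSRNOT00000075589 stood at 5.77, 6.60, 9.18, 7.83, 2.19 and 3.22 in SHR. It was listed at 0 in 4 treated animals, at 0.559 in SHR+ETH 1 and at 5.62 in SHR+ETH 54 (log2 fold change -2.09, SE 0.47, limma adjusted p = 0.0104). Only the last of these lay in the untreated range. ENSRNOT00000033489 ranged 2.14 to 6.20 with a median of 4.48 in SHR and was at 0 in SHR+ETH 1, 2 and 65 and at 0.0160 in SHR+ETH 58 (log2 fold change -1.77, SE 0.41, limma adjusted p = 0.0115). SHR+ETH 54 at 2.95 overlapped the untreated animals and SHR+ETH 64 at 1.71 lay just under them. MERGE.12854.5 was variable in SHR, at 2.11 to 34.8 with a median of 4.82, with SHR 48 highest. Treated animals ranged 0 to 2.29 with a median of 0.579, with 3 at 0 and SHR+ETH 54 alone inside the untreated range (log2 fold change -2.16, SE 0.54, limma adjusted p = 0.0213). MERGE.13042.4 ranged 1.73 to 8.49 with a median of 2.82 in SHR and 0 to 1.94 with a median of 0.238 in SHR+ETH, where only SHR+ETH 64 reached the untreated range (log2 fold change -1.67, SE 0.37, limma adjusted p = 0.0103). MERGE.18225.1 ranged 0.898 to 1.90 with a median of 1.33 in SHR and was at 0 in 4 treated animals (log2 fold change -0.95, SE 0.25, limma adjusted p = 0.0275). SHR+ETH 2 at 1.02 was the one treated animal inside the untreated range, and quantile normalization ended the call (adjusted p = 0.241).

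ENSRNOT00000022677 was the higher transcript whose call outlasted the loss of any library. Untreated animals had 0.195, 0.119, 0.0610, 1.08, 0.311 and 0.0702, and treated ones 0.565, 5.41, 4.86, 1.29, 7.08 and 4.80 (log2 fold change 1.76, SE 0.39, limma adjusted p = 0.0103). The means were 0.306 ± 0.391 and 4.0 ± 2.53 (SD). SHR+ETH 1 and SHR+ETH 58 were the lowest treated animals, and SHR+ETH 1 lay below SHR 48, so the groups overlapped by that pair. WKY animals ranged 3.26 to 6.92 with a median of 4.74, above every untreated SHR. This transcript, MERGE.16214.8, MERGE.25749.4, MERGE.12854.5, MERGE.13042.4, ENSRNOT00000033489 and ENSRNOT00000075589 were the 7 whose calls held without each library and also with a pseudocount of 0.1, without the filter, without a trend and under both scalings. The lower ones among them were above 1 in all 6 SHR libraries, which meets the filter by itself. ENSRNOT00000022677 met it with 6 libraries, SHR 48 and every treated one but SHR+ETH 1. The repeated fits use the same values, so these calls and their stability are no independent support.

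**Figure D2:**
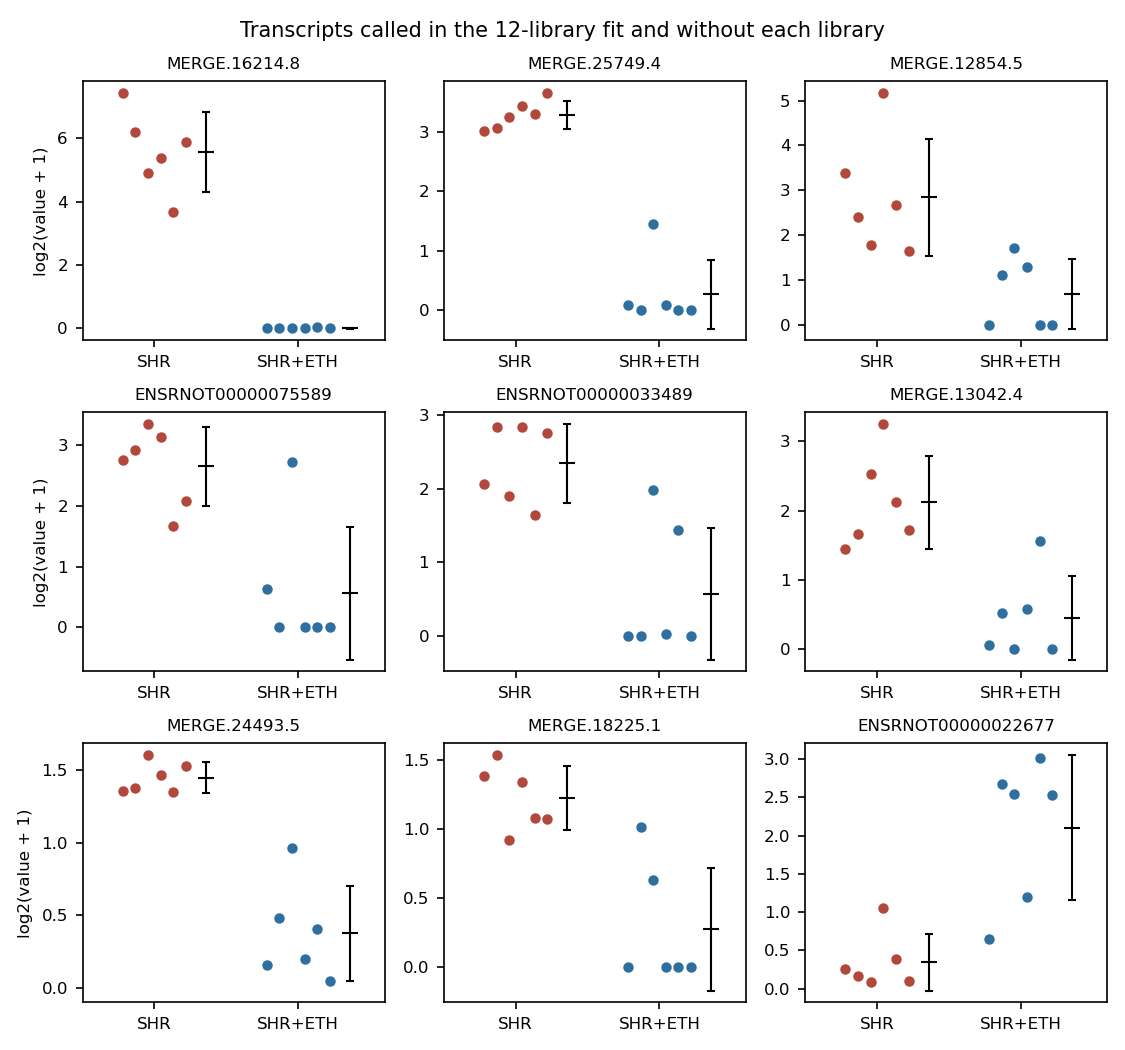
Log2(value + 1) in each library (points, in the order of the replicate numbers) for the 9 transcripts called in the fit of 12 libraries and in every fit without 1 library; the bar beside each group is the mean and SD over 6 animals. MERGE.16214.8, MERGE.25749.4 and MERGE.24493.5 show no overlap between SHR and SHR+ETH, and in the other 5 lower panels 1 treated animal lies within the range of the untreated ones.

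In 11 tested transcripts (5.53%) the 6 treated and 6 untreated values did not overlap, and 9 of these were called. Over all 420 members, 18 (4.29%) had separate groups, 13 lower and 5 higher. Beside the 3 lower ones above, ENSRNOT00000076377 ranged 10.8 to 24.1 with a median of 15.7 in SHR and 0.614 to 9.86 with a median of 7.87 in SHR+ETH (log2 fold change -1.62, SE 0.58, limma adjusted p = 0.0472). Its treated animals split into 4 near the lowest untreated animal and SHR+ETH 58 and 65 close to 1. That call was lost without any 1 SHR library or SHR+ETH 58 or 65 (adjusted p from 0.0529 to 0.0817). MERGE.26418.30 ranged 3.29 to 14.1 with a median of 6.44 against 0.969 to 3.05 with a median of 2.19 (log2 fold change -1.34, SE 0.42, limma adjusted p = 0.0391), and its call was lost without SHR 40, 41, 48 or 60 or SHR+ETH 65 (adjusted p from 0.0536 to 0.0721). MERGE.4852.1 was moderately expressed in every animal, at 3.85 to 8.92 with a median of 5.58 against 1.53 to 3.19 with a median of 2.22 (log2 fold change -1.01, SE 0.36, limma adjusted p = 0.0472). No treated animal was under 1, but its call was lost without any 1 SHR library or SHR+ETH 1, 2, 54, 58 or 65 (adjusted p from 0.0544 to 0.0803). Other settings ended these calls as well. ENSRNOT00000076377 lost its call with a pseudocount of 0.1 (adjusted p = 0.0623), without the filter (adjusted p = 0.0560), after quantile normalization (adjusted p = 0.114) and after median ratio scaling (adjusted p = 0.0909). MERGE.26418.30 did so with a pseudocount of 0.1 (adjusted p = 0.0623), after quantile normalization (adjusted p = 0.120) and after median ratio scaling (adjusted p = 0.0666), and MERGE.4852.1 with a pseudocount of 0.1 (adjusted p = 0.0623), without the filter (adjusted p = 0.0533), after quantile normalization (adjusted p = 0.259) and after median ratio scaling (adjusted p = 0.106).

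Among the higher transcripts 3 had groups that did not overlap, and all were low. MERGE.12458.4 stood at 1.31, 1.57, 0.533, 1.03, 0.954 and 1.83 in SHR and 2.85, 2.80, 3.88, 2.82, 3.40 and 2.09 in SHR+ETH (log2 fold change 0.86, SE 0.30, limma adjusted p = 0.0449). The ratio of its means was 2.47, and the pseudocount of 1 lowers the log2 fold change of values this low (1.30 with a pseudocount of 0.1). The call was lost without any 1 SHR library or SHR+ETH 54 or 64 (adjusted p from 0.0525 to 0.0803). MERGE.15222.1 ranged 0.415 to 1.21 with a median of 0.869 in SHR and 1.40 to 2.85 with a median of 2.03 in SHR+ETH (log2 fold change 0.70, SE 0.26, limma adjusted p = 0.0491), a call lost without any 1 SHR library or SHR+ETH 2, 54, 64 or 65 (adjusted p from 0.0538 to 0.0930). MERGE.2469.2 ranged 0 to 1.88 with a median of 1.20 in SHR, with SHR 3 and SHR 40 at or near 0, and 2.19 to 3.79 with a median of 2.90 in SHR+ETH (log2 fold change 1.12, SE 0.34, limma adjusted p = 0.0351). Its call was lost without SHR 3, 40 or 41 (adjusted p from 0.0573 to 0.0680). Both scalings kept these 3 calls, and a pseudocount of 0.1 ended all of them (adjusted p = 0.0623 for MERGE.12458.4 and MERGE.2469.2 and 0.0633 for MERGE.15222.1). Testing without the filter ended the call of MERGE.15222.1 (adjusted p = 0.0552). A further pair had separate groups without a call. MERGE.11445.4 ranged 4.25 to 5.89 with a median of 5.04 against 0 to 4.09 with a median of 3.62 (log2 fold change -1.10, SE 0.48, limma adjusted p = 0.0609), and MERGE.21293.1 ranged 14.5 to 27.5 with a median of 20.7 against 2.29 to 13.7 with a median of 10.6 (log2 fold change -1.21, SE 0.52, limma adjusted p = 0.0609).

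The other large decreases rested on a part of the treated animals. ENSRNOT00000010759 ranged 27.8 to 359 with a median of 251 in SHR and 6.51 to 304 with a median of 11.8 in SHR+ETH, where SHR+ETH 2 at 304 stood among the upper untreated animals (log2 fold change -2.77, SE 0.90, limma adjusted p = 0.0426). The call was lost without SHR 3, 40, 41, 48 or 59 or SHR+ETH 64 or 65 (adjusted p from 0.0525 to 0.0776). ENSRNOT00000084913 ranged 19.4 to 79.6 with a median of 38.3 in SHR and 0 to 91.1 with a median of 1.22 in SHR+ETH (log2 fold change -2.89, SE 1.03, limma adjusted p = 0.0472). SHR+ETH 1 and SHR+ETH 64 were as high as untreated animals and the other 4 were not, and the call was lost without any 1 SHR library or SHR+ETH 2, 54, 58 or 65 (adjusted p from 0.0529 to 0.0817). MERGE.23686.1 had a similar split: SHR+ETH 2 at 29.2 and SHR+ETH 64 at 28.1 stood with the SHR libraries (9.16 to 31.2 with a median of 26.8), and the other 4 lay between 0.662 and 3.65 (log2 fold change -2.02, SE 0.74, limma adjusted p = 0.0472). Its call was lost without SHR 3, 40, 41, 48 or 60 or SHR+ETH 1, 54, 58 or 65 (adjusted p from 0.0587 to 0.0817). MERGE.15394.3 ranged 0.435 to 13.6 with a median of 6.71 in SHR, while 5 treated animals lay at or below 0.0730 and SHR+ETH 65 at 9.12 (log2 fold change -2.10, SE 0.60, limma adjusted p = 0.0284). That call was lost without SHR 41 (adjusted p = 0.0538). The settings bore on all 4 calls. ENSRNOT00000010759 lost its call with a pseudocount of 0.1 (adjusted p = 0.0623), without the filter (adjusted p = 0.0552), after quantile normalization (adjusted p = 0.0521) and after median ratio scaling (adjusted p = 0.0571). ENSRNOT00000084913 lost it with a pseudocount of 0.1 (adjusted p = 0.0623), without the filter (adjusted p = 0.0590), after quantile normalization (adjusted p = 0.0767) and after median ratio scaling (adjusted p = 0.0807). MERGE.23686.1 lost it with a pseudocount of 0.1 (adjusted p = 0.0623), without the filter (adjusted p = 0.0590), after quantile normalization (adjusted p = 0.120) and after median ratio scaling (adjusted p = 0.0807), and MERGE.15394.3 after quantile normalization (adjusted p = 0.0937) and after median ratio scaling (adjusted p = 0.0571). The treated animal that stood apart from the others was SHR+ETH 2 in ENSRNOT00000010759, SHR+ETH 65 in MERGE.15394.3 and SHR+ETH 54 in ENSRNOT00000075589.

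Beside ENSRNOT00000022677, 7 transcripts made up the largest increases. MERGE.144.2, which had the highest values of the tested transcripts, was listed at 0 in SHR 3, 41 and 60 and stood at 528, 606 and 792 in SHR 40, 48 and 59. All treated animals had it, at 392 to 1030.4 with a median of 651, as did all WKY animals, at 458 to 1147 with a median of 705. The log2 fold change of 4.76 (SE 1.62, limma adjusted p = 0.0449) rested on the 3 untreated animals listed at 0, and the call was lost without SHR 3, 41 or 60 or SHR+ETH 54 or 65 (adjusted p from 0.0591 to 0.0779). ENSRNOT00000018861 ranged 0.0112 to 6.27 with a median of 2.84 in SHR and 4.47 to 14.3 with a median of 11.8 in SHR+ETH, where SHR+ETH 1 was lowest (log2 fold change 1.85, SE 0.50, limma adjusted p = 0.0284). It lost its call without SHR 41 (adjusted p = 0.0538), as did MERGE.4489.4 (adjusted p = 0.0538), which ranged 1.07 to 3.97 with a median of 1.45 against 3.31 to 13.2 with a median of 7.23 (log2 fold change 1.51, SE 0.40, limma adjusted p = 0.0279). In MERGE.4489.4 only SHR 40 and SHR+ETH 1 crossed. Among the settings, MERGE.144.2 lost its call with a pseudocount of 0.1 (adjusted p = 0.0623) and without the filter (adjusted p = 0.0590) and ENSRNOT00000018861 with a pseudocount of 0.1 (adjusted p = 0.0623), while that of MERGE.4489.4 remained with that pseudocount (adjusted p = 0.0449).

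ENSRNOT00000027834 ranged 0.431 to 3.75 with a median of 0.773 in SHR and 1.21 to 9.65 with a median of 7.16 in SHR+ETH (log2 fold change 1.58, SE 0.45, limma adjusted p = 0.0284). SHR+ETH 2 and SHR+ETH 64 lay in the untreated range, and the call was lost without SHR 3, 41 or 48 (adjusted p from 0.0536 to 0.0591). MERGE.25310.2 ranged 1.04 to 3.28 with a median of 1.55 in SHR, while 5 treated animals stood between 8.16 and 11.8 and SHR+ETH 54 at 1.25 (log2 fold change 1.58, SE 0.47, limma adjusted p = 0.0313). It lost its call without SHR 3, 41 or 60 (adjusted p from 0.0541 to 0.0591). MERGE.8998.4 ranged 1.51 to 14.9 with a median of 7.68 against 9.02 to 29.1 with a median of 21.2 (log2 fold change 1.54, SE 0.58, limma adjusted p = 0.0487). SHR 40, SHR 60 and SHR+ETH 65 made the overlap. The call was lost without any 1 SHR library or SHR+ETH 1, 2, 54, 58 or 64 (adjusted p from 0.0550 to 0.0930). For ENSRNOT00000085875, 5 SHR libraries lay between 0.10 and 0.115 and SHR 60 stood at 4.45. Treated animals ranged 0.115 to 9.25 with a median of 3.67, and SHR+ETH 2 lay at that same low level, as did WKY 6 at 0.110 (log2 fold change 1.45, SE 0.51, limma adjusted p = 0.0472). Its call was lost without SHR 3, 40, 41, 48 or 59 or SHR+ETH 1, 58, 64 or 65 (adjusted p from 0.0501 to 0.0817). A pseudocount of 0.1 ended all 4 of these calls, with adjusted p = 0.0606 for ENSRNOT00000027834 and 0.0623 for the other 3. Testing without the filter ended those of MERGE.8998.4 and ENSRNOT00000085875 (adjusted p = 0.0590 for both).

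The called transcripts were also read by animal. A treated animal lay below all 6 untreated ones in 32 (SHR+ETH 64) to 40 (SHR+ETH 58) of the 50 lower transcripts, and above all of them in 11 to 15 of the 17 higher ones, with SHR+ETH 58 highest in both. By transcript, all 6 treated animals lay below the untreated range in 6 of the 50, 5 did in 18, 4 in 17, 3 in 5, 2 in 2 and none in 2. From the side of the untreated animals, SHR 48 lay above all treated ones in 38 of the 50 and SHR 59 in 22. These counts describe transcripts that were called on the same values and carry no test.

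**Figure D3:**
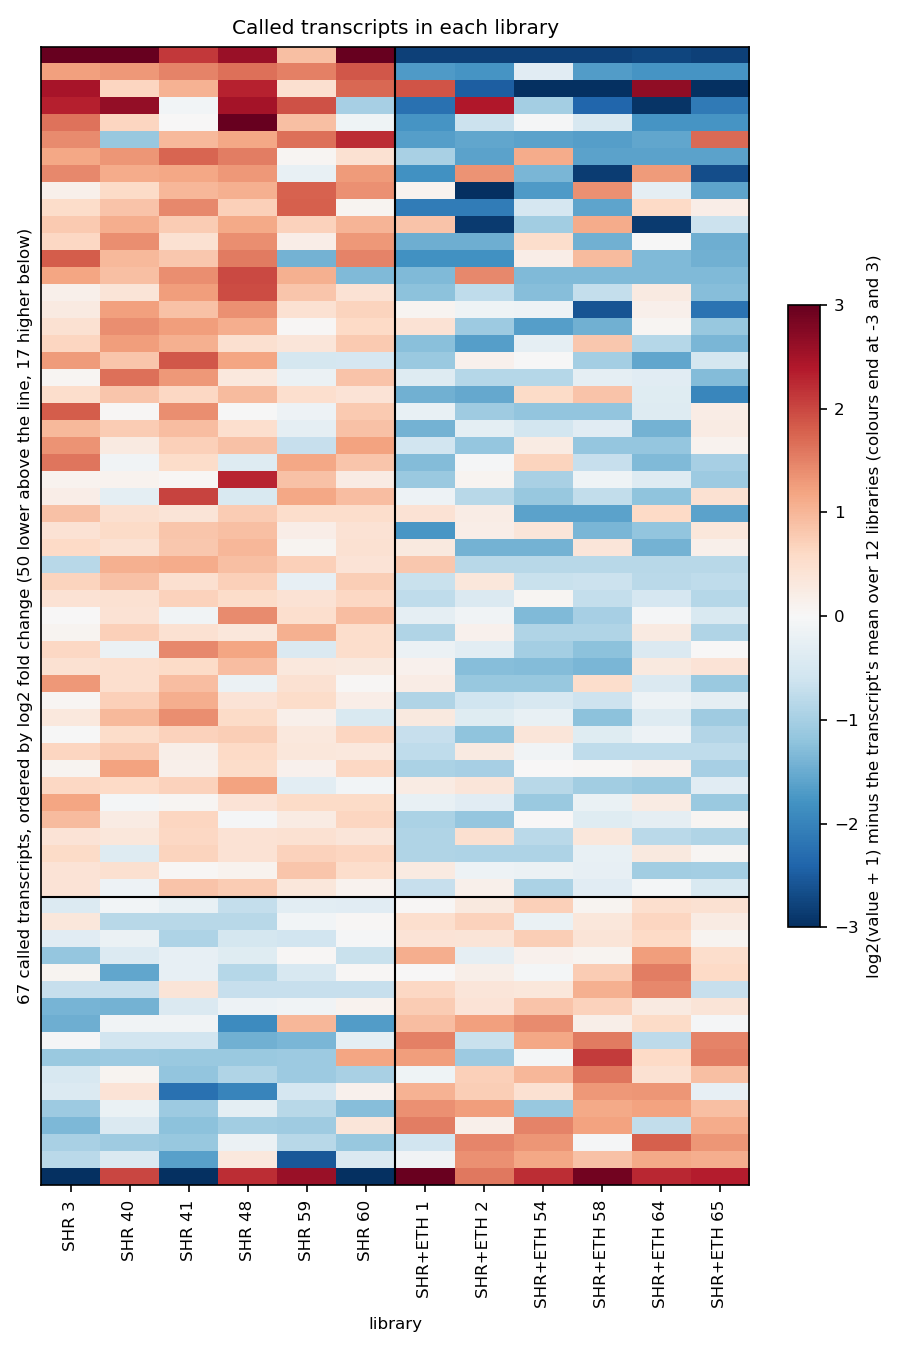
Log2(value + 1) of the 67 called transcripts (rows, ordered by log2 fold change) in the 12 libraries (columns), as the difference from each transcript's mean. Red is above and blue below that mean; the line separates the 50 lower from the 17 higher transcripts, and single treated animals that keep an untreated level appear as red cells in the upper right block.

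Values of 0 in some animals of a group were common, and more so in SHR+ETH than in SHR. Of the 199 tested transcripts 92 had treated libraries both at 0 and at 1 or more, and 33 had untreated libraries in both states. Among the 50 lower transcripts 32 were listed at 0 in at least 1 treated animal and 12 in 3 or more, whereas 2 were at 0 in an untreated animal. In the higher transcripts 5 of 17 were at 0 in at least 1 untreated animal and 1 in a treated animal. The SD of log2(value + 1) over animals was larger in SHR+ETH than in SHR for 134 of the 199, with medians of 0.772 and 0.532. Over all 420 members a library had 62 to 81 at 0 in SHR and 112 to 153 in SHR+ETH, with SHR+ETH 65 highest, and the values of the 420 summed to 2040.3 to 3713 and 1638 to 2737. WKY libraries, outside the contrast, had 110 to 149 of the 420 at 0, so frequent values of 0 were not particular to SHR+ETH. Because depth is unknown, a lower depth in the treated libraries and fewer transcripts cannot be told apart from these values.

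Some members were listed at 0 throughout a group, and no fold is given for them. There were 31 at 0 in all 6 SHR+ETH libraries and 14 at 0 in all 6 SHR libraries, none of which passed the filter. ENSRNOT00000029435 was present in 3 untreated animals only, at 84.9, 82.3 and 71.6 in SHR 40, 41 and 48. MERGE.28195.3 was present in a pair of these, at 53.7 in SHR 41 and 95.1 in SHR 48. MERGE.20775.4 stood at 36.7 in SHR 40 and 47.7 in SHR 41, and at 0.00543 in SHR 59. These 3 were at 0 in all WKY libraries as well, so high values occurred in 2 or 3 of 18 animals. MERGE.21365.11 was found in 4 SHR animals, at 0.758 to 15.1. MERGE.22259.17 was the one transcript above 0 in all 6 SHR animals (0.158 to 9.23 with a median of 0.473) and at 0 in all treated ones.

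In the opposite direction MERGE.3525.2 was at 0 in all SHR and stood at 20.5, 16.4 and 36 in SHR+ETH 2, 54 and 65. WKY animals all had it, at 4.18 to 57.9 with a median of 22.2. ENSRNOT00000035748 stood at 15.0, 11.8 and 13.6 in SHR+ETH 54, 58 and 64 and was at 0 in the other 3. MERGE.25920.3 was present in SHR+ETH 1, 54 and 58 (2.10, 8.28 and 16.8), and MERGE.28808.1 in SHR+ETH 1, 2 and 58 (0.799, 8.67 and 8.68). Each of these 4 was above 0 in 3 treated animals, and the 3 animals differed from transcript to transcript. MERGE.17257.2 was the one transcript at 0 in all SHR and above 0 in every treated animal (0.0273 to 2.78 with a median of 0.991).

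Transcripts of one assembled locus share sequence, so reads can be divided between them and they are not independent. Of 19 loci with 2 members among the 420, both went in the same direction in 12 and in opposite directions in 7. In 4 loci both were tested. MERGE.144.1 followed MERGE.144.2: it was low in SHR 3, 41 and 60 (4.32, 2.62 and 2.48), where MERGE.144.2 was at 0, and higher in SHR 40, 48 and 59 (21.8, 27.0 and 46.1). Treated animals ranged 16.5 to 50.6 with a median of 39.2, and the difference did not pass (log2 fold change 1.71, SE 0.71, limma adjusted p = 0.0556). It passed without SHR 59 (log2 fold change 2.12, adjusted p = 0.0411), without a trend (log2 fold change 1.71, adjusted p = 0.0481) and after quantile normalization (log2 fold change 2.43, adjusted p = 0.0155). The locus thus stood at 2 levels among untreated animals, and all treated animals were above the lower one. Only SHR+ETH 2 lay below the upper one, at 16.5 in MERGE.144.1 and 392 in MERGE.144.2.

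The other 3 loci had 1 transcript on each side. MERGE.20702.6 was lower, at 1.04 to 7.01 with a median of 2.13 in SHR and 0 to 1.65 with a median of 0.423 in SHR+ETH (log2 fold change -1.28, SE 0.39, limma adjusted p = 0.0351). MERGE.20702.9 ranged 1.88 to 7.34 with a median of 3.60 and 3.11 to 24.2 with a median of 10.5 and did not pass (log2 fold change 1.22, SE 0.50, limma adjusted p = 0.0556), although it did after median ratio scaling (log2 fold change 1.45, adjusted p = 0.0420), after quantile normalization (log2 fold change 1.62, adjusted p = 0.0216), with the filter at 5 (adjusted p = 0.0490), without a trend (adjusted p = 0.0469) and without SHR+ETH 65 (log2 fold change 1.51, adjusted p = 0.0411). MERGE.20702.6 in turn lost its call without SHR 3, 41 or 60 or SHR+ETH 54 (adjusted p from 0.0518 to 0.0721). It also lost it with a pseudocount of 0.1 (adjusted p = 0.0623), without the filter (adjusted p = 0.0515), after quantile normalization (adjusted p = 0.268) and after median ratio scaling (adjusted p = 0.0675). MERGE.20702.6 kept its call without a trend (adjusted p = 0.0422) and without SHR+ETH 65 (adjusted p = 0.0296), where both of the pair were called. Which of the pair was called thus depended on the setting and the libraries. MERGE.19062.36 was lower, at 0.686 to 8.44 with a median of 2.54 against 0.00297 to 2.18 with a median of 0.349 (log2 fold change -1.19, SE 0.42, limma adjusted p = 0.0472), a call lost without SHR 3, 41, 59 or 60 or SHR+ETH 2, 54, 58 or 64 (adjusted p from 0.050 to 0.0779). Its call was also lost with a pseudocount of 0.1 (adjusted p = 0.0623), without the filter (adjusted p = 0.0590), after quantile normalization (adjusted p = 0.403) and after median ratio scaling (adjusted p = 0.0938). MERGE.19062.61 was listed at 0 in 3 SHR libraries and reached 29.6 in SHR 3, while treated animals ranged 1.83 to 54.4 with a median of 6.63 (log2 fold change 1.99, SE 0.84, limma adjusted p = 0.0564). It passed without SHR 3 (log2 fold change 2.73, adjusted p = 0.0180), without SHR+ETH 64 (log2 fold change 2.33, adjusted p = 0.0498) and after quantile normalization (log2 fold change 2.51, adjusted p = 0.0403). MERGE.11555.1 ranged 0 to 2.61 with a median of 1.22 against 1.25 to 4.31 with a median of 2.28 and MERGE.11555.2 0.856 to 4.12 with a median of 1.78 against 0 to 2.72 with a median of 0.629. Their log2 fold changes of 0.80 (SE 0.37) and -0.81 (SE 0.37) did not pass (limma adjusted p = 0.0776 and 0.0722). MERGE.11555.1 passed after quantile normalization (log2 fold change 1.27, adjusted p = 0.0155). MERGE.11555.2 passed without SHR+ETH 2 (log2 fold change -1.04, adjusted p = 0.0360) and stood near 0 after quantile normalization (log2 fold change -0.10, adjusted p = 0.825). A difference between the 2 transcripts of a locus was not tested.

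**Figure D4:**
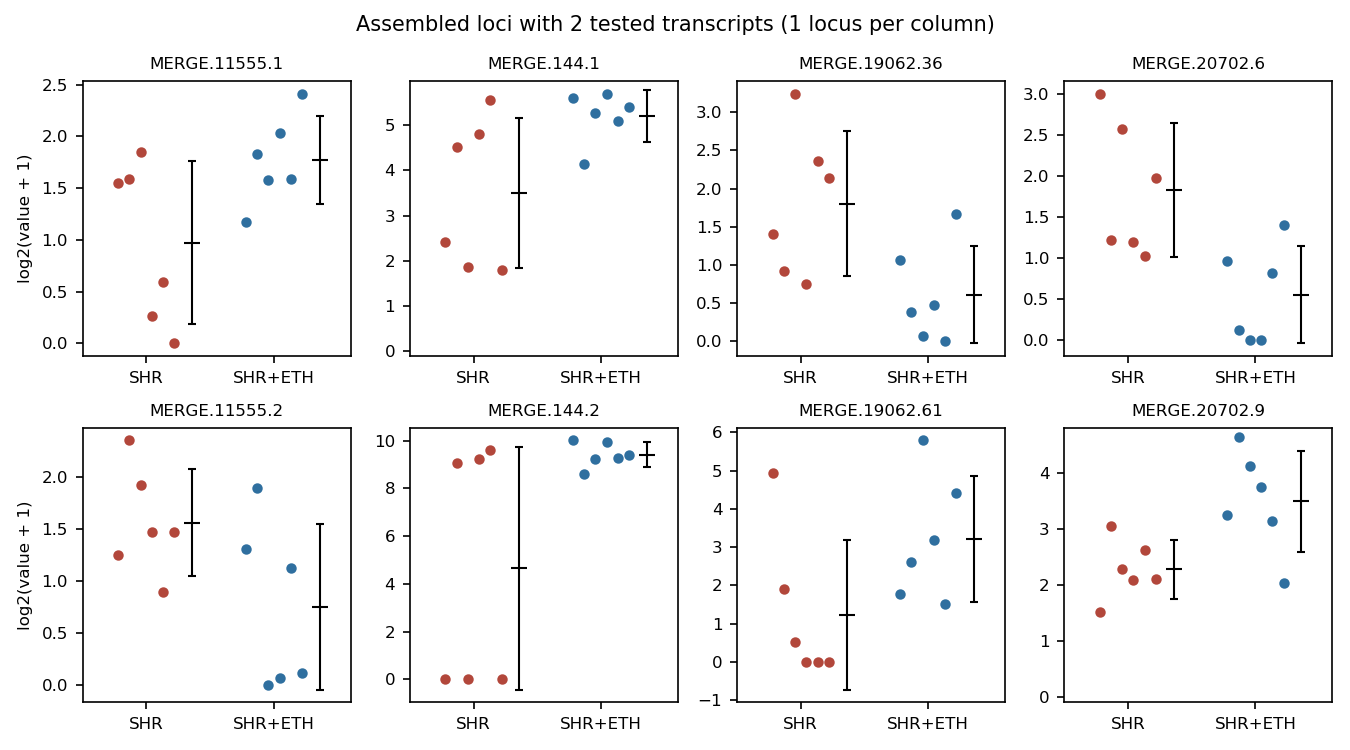
Log2(value + 1) in each library (points) of the 4 assembled loci with both transcripts tested, 1 locus per column; bars are the mean and SD over 6 animals. Both transcripts of MERGE.144 have the higher mean in SHR+ETH, while in MERGE.11555, MERGE.19062 and MERGE.20702 1 transcript has the higher mean in SHR+ETH and the other in SHR.

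The 5 tested transcripts with the highest mean values included MERGE.144.2 and ENSRNOT00000010759, described above. MERGE.24399.1 ranged 353 to 756 with a median of 479 in SHR and 49.2 to 357 with a median of 227 in SHR+ETH and was just short of a call (log2 fold change -1.51, SE 0.58, limma adjusted p = 0.0502). Only SHR+ETH 2 was above the lowest untreated animal, SHR 60. It passed without SHR+ETH 2 (log2 fold change -1.71, adjusted p = 0.0360) or SHR+ETH 1 (log2 fold change -1.67, adjusted p = 0.0452). ENSRNOT00000041891 ranged 160.5 to 488 with a median of 304 against 45.7 to 271 with a median of 103 (log2 fold change -1.43, SE 0.58, limma adjusted p = 0.0532). SHR+ETH 58 was the treated animal among the untreated ones, and the difference passed without that library (log2 fold change -1.70, adjusted p = 0.0420). Both transcripts also passed with the filter at 5 (adjusted p = 0.0489 for each) and without a trend (adjusted p = 0.0393 for each). ENSRNOT00000039728 was at 0 in SHR 41 and 59 and between 72.7 and 219 in the other 4, and ranged 86.1 to 223 with a median of 118 in SHR+ETH (log2 fold change 2.30, SE 1.22, limma adjusted p = 0.102). Of these 5, MERGE.144.2 and ENSRNOT00000010759 were called.

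The filter lay close to several members. MERGE.29714.5 passed it with 0 to 1.28 with a median of 0.577 in SHR and 0.411 to 1.52 with a median of 1.06 in SHR+ETH, as did MERGE.18225.1. MERGE.13134.3 just failed it, with 0.712 to 3.39 with a median of 1.46 in SHR and 0 to 0.995 with a median of 0.300 in SHR+ETH, and so did ENSRNOT00000090654, with 0.0113 to 1.28 with a median of 0.527 and 0.658 to 1.40 with a median of 0.986. In all, 25 members reached 1 in 5 libraries and were left out. Over the 221 untested members 135 had a lower mean log2(value + 1) in SHR+ETH and 86 a higher one, against 141 and 58 of the tested.

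All 67 calls kept their direction under both scalings, although their calls did not all remain. The 17 higher calls were all kept after median ratio scaling and after quantile normalization. Of the 50 lower ones 12 and 7 were kept. Both scalings were computed within this list, where most tested transcripts were lower in SHR+ETH, which by itself raises fold changes. Over the 199, fold changes rose by a median of 0.27 and 0.51 on the log2 scale, and their median went from -0.85 to -0.57 and -0.26. Relative to that shift the largest decreases remained decreases: MERGE.16214.8 stood at -5.06 and -5.08, and MERGE.25749.4 at -2.57 and -2.51. Of the 199 tested transcripts 8 changed sign after quantile normalization, all of them uncalled with the values as deposited.

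**Figure D5:**
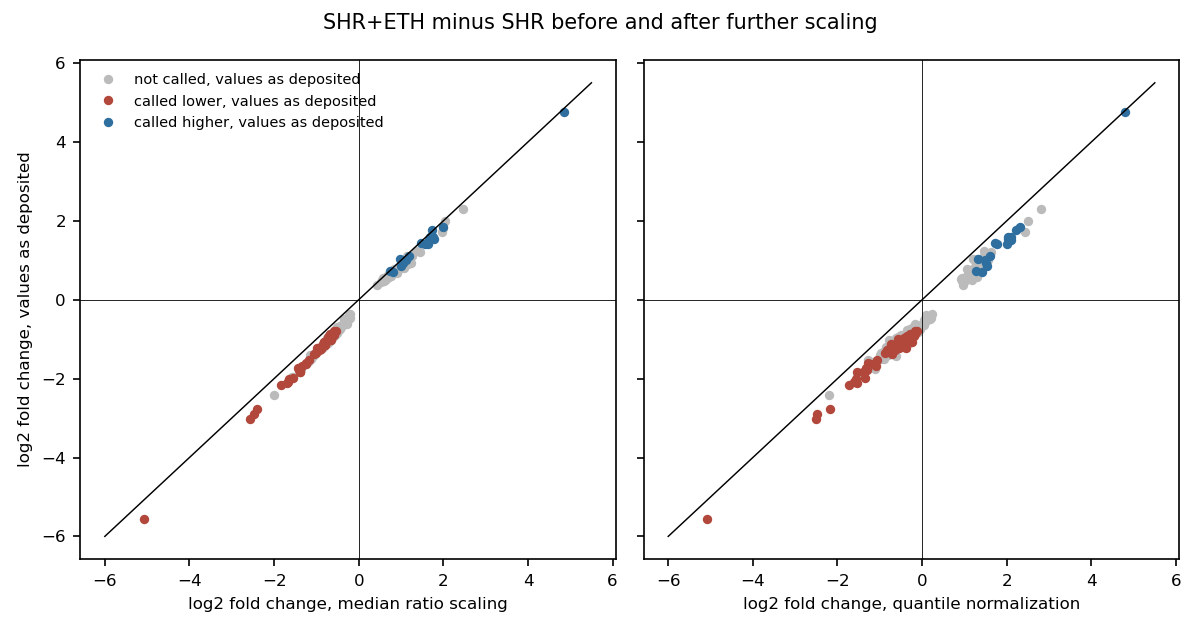
Log2 fold change (SHR+ETH minus SHR) of the 199 tested transcripts with the values as deposited (vertical) against the same after median ratio scaling (left) and quantile normalization (right); the slanted line marks equal values. Points lie to the right of the line for most transcripts, and no called transcript (red lower, blue higher) crosses 0.

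For orientation, the median of the transcripts' means was 3.30 in SHR, 0.843 in SHR+ETH and 1.29 in WKY for the lower transcripts, and 1.23, 4.0 and 5.56 for the higher ones. The WKY mean lay on the SHR+ETH side of the SHR mean in all 50 lower and all 17 higher transcripts. The contrasts of SHR with WKY and with SHR+ETH share the SHR libraries. Every member also stands in the list shared by SHR and WKY, whose criterion is not stated either. A return toward WKY levels can therefore not be read from these values, which carry no test.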

How the data were processed

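Ribosomal RNA-depleted RNA of 18 abdominal aortas, 6 per group, was sequenced per the labels' protocols, and 12 libraries enter this contrast. The deposited tables hold 1 normalized signal value per transcript and library; the unit is not in the file headers, and neither labels nor headers state the aligner, quantifier or genome build. Limma is listed, with no version, in the submitters' processing notes. Low values were not whole multiples of a step (at most 31.6% whole, counting the first 20 steps and values within 0.1 of a step), so depth is unknown and no count test, interval or floor was used; 2024 blank rows in each SHR+ETH table were dropped. From the deposited signal, log2(value + 1) was computed for the 420 transcripts listed in both groups, and a transcript was tested where 6 or more of the 12 libraries reached 1.

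The fit was limma 3.58.1 (R 4.3.3; lmFit, then eBayes with a mean trend) with group as the only term, two-sided, with Benjamini-Hochberg adjustment over all 199 tested transcripts and a threshold of 0.05. It was tested on simulated data first. Tables were made with Python 3.11.15, numpy 2.4.6, pandas 2.3.3 and matplotlib 3.10.9. Alternatives were a pseudocount of 0.1, no filter, a filter at 5, quantile normalization, median ratio scaling, no trend and leaving out each of the 12 libraries. Transcripts were named where groups did not overlap and the call passed, among the 8 largest calls in each direction, the 5 highest mean values, the transcripts of the 5 loci with most tested transcripts, up to 4 per direction at 0 throughout a group, and the 2 nearest to the filter on each side. ENSRNOT00000033489, MERGE.13042.4, MERGE.11445.4, MERGE.21293.1, MERGE.22259.17 and MERGE.17257.2 fall outside that rule and were picked after their values were seen. The members and lists were chosen with earlier results of these data known. Gene lists for the Smad pathway, matrix, contraction and cell types were drawn up and could not be applied, because no identifier matched a gene name, and no sequence is shown for the same reason. No pairing of the animals is given.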

Additional observations from a re-analysis of the deposited data

Results flagged for a closer look

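A single animal stood apart from the other 5 of its group in 12 of the 94 groups of 6 examined, by the gap to its nearest neighbour as a share of the group's range (Dixon's test at its 95% limit, on log2(value + 1) for transcripts). Chance sets apart about 1 in 20 groups.

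In treated animals, MERGE.16214.8 was at 0.0307 in SHR+ETH 64 and at 0 in the other 5, a gap between values near 0. SHR+ETH 54 stood apart in 3 transcripts: at 1.73 in MERGE.25749.4, where the others were at 0 to 0.0696, at 5.62 in ENSRNOT00000075589, where the others were at 0 to 0.559, and at 1.25 in MERGE.25310.2, where the others were at 8.16 to 11.8. In all 3 it lay nearer to the untreated animals than the other treated animals did. SHR+ETH 1 was low in ENSRNOT00000018861, at 4.47 against 9.73 to 14.3. SHR+ETH 2 was high in ENSRNOT00000010759, at 304 against 6.51 to 27.2. SHR+ETH 65 was high in MERGE.15394.3, at 9.12 against 0 to 0.0730, and had 153 of the 420 members at 0 against 112 to 123 in the others.

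In untreated animals, SHR 48 was at 1.08 in ENSRNOT00000022677 against 0.0610 to 0.311. SHR 60 was at 4.45 in ENSRNOT00000085875 against 0.10 to 0.115. SHR 40 was at 0.435 in MERGE.15394.3 against 5.19 to 13.6, and SHR 59 at 9.16 in MERGE.23686.1 against 24.8 to 31.2.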

How the results depend on the processing

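None of the 35 tested transcripts named by the rule changed direction under any alternative run on them. The 10 untested ones entered only the fit without the filter and were not compared across alternatives. With a pseudocount of 0.1, 12 transcripts were called (2 higher, 10 lower). Without the filter 43 of 420 were called (13 higher, 30 lower), and with a filter at 5, 20 of 52 (4 higher, 16 lower). Quantile normalization gave 55 calls (48 higher, 7 lower), median ratio scaling 30 (18 higher, 12 lower) and no trend 80 (18 higher, 62 lower). The filters test other numbers of transcripts; for the other alternatives the cause was not tested. Leaving out 1 library gave 11 to 71 calls, 3 to 15 higher and 8 to 59 lower. Unadjusted limma p was under 0.05 in 120 of 199 in the main fit and in 102 to 127 without 1 library. It was so in 130 with a pseudocount of 0.1, 125 without a trend, 99 after median ratio scaling and 74 after quantile normalization. No paired analysis was possible because SHR and SHR+ETH share no replicate number. Depth is unknown, so values at or near 0 have no stated precision, and p-values apply to a list in which small differences are missing.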
